A study of Mus musculus with 3 samples.

Results

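Nitric oxide synthesis and oxidative defence were examined through 9 mouse genes, *Nos2*, *Gch1*, *Ass1*, *Asl*, *Nfe2l2*, *Hmox1*, *Sod2*, *Cat* and *Gpx1*, in a map of H3K4me1 enriched regions of pancreatic islets exposed to 3 proinflammatory cytokines. The genes were chosen by name, and each received the regions that overlapped it or lay within 20 kb of any of its annotated transcription start sites (TSS) in GENCODE M1 on the mm9 genome. This gave 37 of the 65709 regions, and the 9 genes stand among 22350 protein-coding genes. Islets came from CD1 mice of 8 to 12 weeks by the sample labels (the methods give ICR mice and a narrower range of ages) and were exposed for 4 days to a mixture of TNFα at 0.16 ng/ml, IL-1β at 0.25 ng/ml and IFNγ at 1.6 ng/ml. Islets from at least 10 mice were used, and DNA from 4 ChIP experiments was pooled into 1 library. A second group of islets, cultured without cytokines for the same 4 days, and the RNA-seq of both groups were not analysed here. The labels place the list with the cytokine treated islets, and it holds fewer regions than the merged set of treated and untreated islets that the paper describes, so it is not the whole of that set. Whether it holds the calls of this library alone is not stated, and gained, kept and lost enrichment cannot be told apart. With 1 library no value below has a replicate error, and no difference was tested.

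H3K4me1, the attachment of a single methyl group to lysine 4 of histone H3, marks regulatory DNA, in particular enhancers and the flanks of promoters. Nos2 is the inducible nitric oxide synthase, which makes nitric oxide from arginine once inflammatory cytokines have switched its gene on, and in β-cells nitric oxide impairs mitochondrial respiration and insulin secretion. Gch1 makes the cofactor tetrahydrobiopterin, and Ass1 and Asl rebuild arginine from citrulline. On the defence side, Nfe2l2 (NRF2) is the transcription factor that switches on antioxidant genes through antioxidant response elements, Hmox1 degrades haem, Sod2 converts mitochondrial superoxide to hydrogen peroxide, and Cat and Gpx1 remove hydrogen peroxide. β-cells are known for low levels of catalase and glutathione peroxidase.

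*Nos2* (ENSMUSG00000020826.6, chr11:78734289-78773756, plus strand) had 1 assigned region, which was 9.4 kb wide and lay across its only TSS. The region ran from 4888 bp upstream to 4511 bp downstream of the TSS, at chr11:78729401-78738800, and took in exons 1 and 2 and the start of intron 2 of a transcript with 27 exons. A region at least as wide over the first (most upstream) TSS was found at 1.61% of protein-coding genes, and 2.42% of all regions were at least as wide. Counted wherever a gene's regions lay, *Nos2* was less unusual, since 27% of protein-coding genes had at least as much covered length and 8.12% had a widest region at least as wide. The other 35 kb of the gene body held 0 regions.

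The sequences below are mm9 sequence written 5′ to 3′ on the strand named, and they are shown because they are the *Nos2* promoter and the windows with the most motif matches of the cytokine pathways in the region over the TSS and in the wide region upstream. Both strands were searched for the NF-κB consensus, bound by the factor that IL-1β and TNFα activate, for the IFNγ-activated site (GAS, TTCNNNGAA) and for the interferon-stimulated response element core (ISRE, GAAANNGAA), bound by IRF factors. Capitals mark matches to any of these motifs, and positions give the first base of a match relative to the first TSS. The promoter is the window from 250 bp before to 50 bp after the TSS, and the other windows are the 300 bases with the most matches in their region, chosen after the matches were seen.
*Nos2* promoter (chr11:78734039-78734338, plus strand): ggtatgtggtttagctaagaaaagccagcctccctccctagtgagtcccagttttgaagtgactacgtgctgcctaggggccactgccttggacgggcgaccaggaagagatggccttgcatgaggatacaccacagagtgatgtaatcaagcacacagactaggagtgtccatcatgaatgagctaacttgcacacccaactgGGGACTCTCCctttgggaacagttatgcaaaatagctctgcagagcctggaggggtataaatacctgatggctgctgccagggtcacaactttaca
*Nos2* window from 1008 bp upstream (chr11:78733281-78733580, plus strand): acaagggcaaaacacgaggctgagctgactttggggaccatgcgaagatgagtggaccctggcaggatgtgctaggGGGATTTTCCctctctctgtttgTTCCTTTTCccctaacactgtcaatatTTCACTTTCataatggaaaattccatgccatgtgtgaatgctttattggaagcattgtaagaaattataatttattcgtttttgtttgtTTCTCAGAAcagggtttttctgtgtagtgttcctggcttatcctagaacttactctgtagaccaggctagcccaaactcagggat
*Nos2* window in the region 30.3 kb upstream (chr11:78700543-78700842, plus strand): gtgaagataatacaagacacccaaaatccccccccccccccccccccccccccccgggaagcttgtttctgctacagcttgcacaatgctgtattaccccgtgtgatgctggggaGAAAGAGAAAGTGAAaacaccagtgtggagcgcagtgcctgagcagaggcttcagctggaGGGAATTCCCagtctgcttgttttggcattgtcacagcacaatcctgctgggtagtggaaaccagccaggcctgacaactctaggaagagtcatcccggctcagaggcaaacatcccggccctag

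The *Nos2* promoter held 1 NF-κB match, at -46 bp, and no GAS or ISRE match. Positions at *Nos2* rest on the GENCODE start, since no RefSeq start was at hand for this gene. The window from 1008 bp upstream held the other NF-κB match of the region, at -932 bp, with ISRE matches at -909 and -882 bp and a GAS match at -793 bp. An NF-κB match was found in 8.89% of all promoters of this length, a GAS match in 7.94% and an ISRE match in 8.93%. At the centres of enriched regions, in windows of the same 300 bases, the shares were 5.55%, 9.5% and 10.5%. The whole *Nos2* region held 2 NF-κB, 4 GAS and 5 ISRE matches. Its density of NF-κB matches, 0.213 per kb, was close to the 0.212 per kb over all regions, whereas GAS matches stood at 0.426 against 0.332 per kb and ISRE matches at 0.532 against 0.373 per kb. Of the 70 regions of exactly this width, 15 (21.4%) held at least the 11 matches seen here, but 4 (5.71%) held at least 4 of them within 300 bases. A match is a description of letters and not a shown binding site.

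Region by region, the 100 kb on either side of *Nos2* and the gene itself held 12 regions, which covered 38.4 kb of 239.5 kb. This is 16% of the sequence, compared with 8.94% of chromosome 11 and 5.29% of the genome. The latter shares include sequence far from genes, and windows around other genes were not measured. 6 of the 12 regions overlapped no annotated gene, and 3 had *Nos2* as the closest TSS. Besides the region over the TSS, these 3 were an intergenic region of 8.6 kb that ended 30.3 kb upstream (chr11:78695401-78704000) and a region of 0.4 kb that lay 41.9 kb upstream. The 8.6 kb region was wider than most, with 3.05% of the list at least as wide. Between it and the *Nos2* region were 25.4 kb without enrichment.

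The upstream region was nearly as wide as the one over the TSS and held 3 NF-κB, 5 GAS and 5 ISRE matches. 13 matches in all compare with a median of 7.5 in the 110 regions of the same width, of which 14 (12.7%) held at least as many. Its window printed above held an NF-κB match at -33571 bp and overlapping ISRE matches at -33631 and -33625 bp, and 19 (17.3%) of the 110 regions had at least 3 matches within 300 bases. Because it lay beyond 20 kb, it is not among the 37 regions.

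Farther upstream, the protein-coding gene *1810012P15Rik*, whose TSS lay 94.2 kb away, carried a region of 7.0 kb over that TSS, with a region of 0.6 kb on its far side and one of 1.6 kb at 71.5 kb from *Nos2*. Downstream, the next region began 47.2 kb past the end of the *Nos2* region. It was 1.6 kb wide and lay inside *Lgals9*, which encodes galectin-9 and is transcribed towards *Nos2*. A second region of 2.6 kb was also inside *Lgals9*, and its TSS at 64.2 kb was in neither. 2 intergenic regions of 3.2 and 2.6 kb followed, and 2 regions of 0.4 kb lay inside *Ksr1*, a scaffold gene of the MAP kinase pathway. The map of the *Nos2* locus shows wide regions at and upstream of the TSS and none over the rest of the gene.

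**Figure D1:**
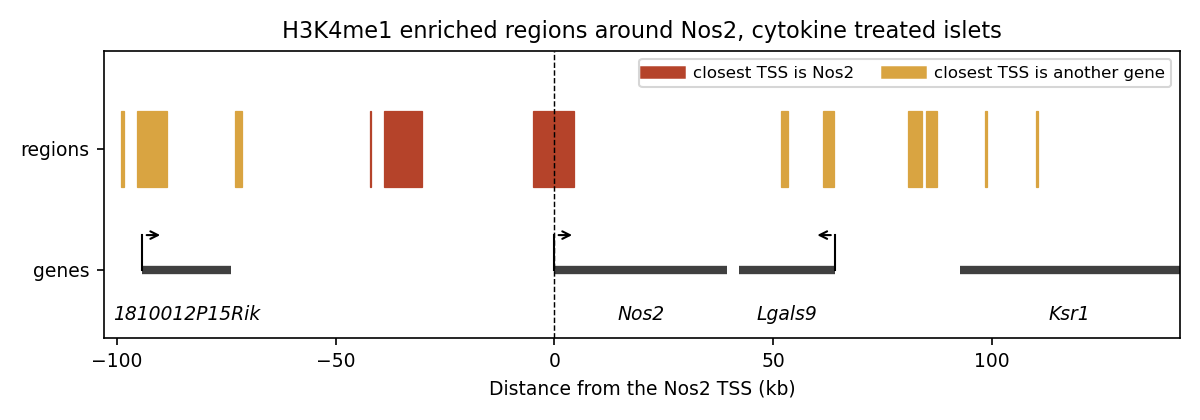
Map of the 12 H3K4me1 enriched regions from 100 kb before to 100 kb after *Nos2*, with the protein-coding genes below them (bars, arrows at the TSS and pointing along transcription) against distance from the *Nos2* TSS in kb. The 3 regions with *Nos2* as the closest TSS are red, and the regions of 9.4 and 8.6 kb are the widest.

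Among the other genes of nitric oxide and arginine metabolism, *Gch1* (ENSMUSG00000037580.9, chr14:47773570-47809088, minus strand) had the opposite arrangement. No region lay within 2 kb of its only TSS, which was the case for 41.2% of protein-coding genes, and *Gch1* was the 1 gene of the 9 in this class. Its 5 regions covered 24.4 kb, more than at any other of the 9 genes, and 5.97% of protein-coding genes had at least as much. Intron 1 held a region of 11.6 kb, the widest of the 37, which began 3088 bp downstream of the TSS. A region of 5.4 kb followed over exon 2, with regions of 1.8 and 3.2 kb in intron 3, so that 61.9% of the gene body was covered. The last region, of 2.4 kb, lay 13.9 kb upstream in intergenic sequence. The 11.6 kb region held 7 NF-κB, GAS and ISRE matches, fewer than the median of 10 in the 40 regions of that width.

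*Ass1*, like *Nos2*, had a region over the first TSS. At *Ass1* (chr2:31325727-31376192, plus strand) this region was 6.2 kb wide and ran from 526 bp upstream to 5673 bp downstream, over exons 1 and 2. A region of 1.2 kb lay in intron 7, a region of 0.4 kb lay upstream inside *Hmcn2*, and one of 0.8 kb lay past the end of the gene, with *Gm13426* as the closest TSS. *Nos2* was the 1 gene of the 9 with exactly 1 region, against 13.0% of protein-coding genes, yet its covered length of 9.4 kb was above that of *Ass1*, with 8.6 kb in 4 regions. This count rests on the limit of 20 kb. By the closest TSS within 100 kb *Nos2* had 3 regions while *Asl* and *Nfe2l2* had 1 each, and within 50 kb of a TSS *Nos2* had 3. The closest TSS can be that of a noncoding gene. *Nfe2l2* lost its regions to a U6 RNA gene and to the transcript *E030042O20Rik*, but their closest protein-coding TSS was that of *Nfe2l2*.

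*Asl* (chr5:130487128-130501002, minus strand) has 9 annotated TSS, of which 6 lay in a region of 2.4 kb over exon 2, but its first TSS stood 202 bp outside that region. The other 3 regions of *Asl* had TSS of neighbours as their closest. One of 2.4 kb covered the TSS of *Gusb*, and those of 1.8 and 0.6 kb lay inside *Crcp*. Ranked by covered length, the 4 genes of this group were *Gch1* with 24.4 kb, *Nos2* with 9.4 kb, *Ass1* with 8.6 kb and *Asl* with 7.2 kb. The error of these lengths was not measured.

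Among the oxidative defence genes, *Nfe2l2* (ENSMUSG00000015839.6, chr2:75513570-75542698, minus strand) had 21.8 kb covered in 4 regions, and 7.51% of protein-coding genes had at least as much. Regions of 8.2, 1.4 and 9.4 kb lay in intron 1 and covered, together, 65.2% of the gene body, the highest share of the 9 genes. A U6 RNA gene lies inside the 9.4 kb region. The remaining region, of 2.8 kb, lay upstream over the neighbouring transcript *E030042O20Rik*. The first TSS was left uncovered between enrichment that ended 303 bp upstream and enrichment that began 1098 bp downstream.

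*Hmox1* (ENSMUSG00000005413.6, chr8:77617490-77624495, plus strand), a known target of NRF2, had 6 regions, the most of the 9 genes at the limit of 20 kb, and 15.0 kb covered. By the closest TSS within 100 kb *Gch1* also had 6 regions, and within 10 kb of a TSS *Cat* had 5 and *Hmox1* 4. A region of 5.2 kb ran from 5089 bp upstream to 110 bp downstream, and 3 of the 4 annotated TSS were in regions. A region of 3.2 kb covered exons 2 and 3. Upstream of these lay regions of 0.2 kb, of 2.2 kb from 10889 to 8690 bp and of 1.8 kb, and downstream a region of 2.4 kb covered the TSS of *Mcm5*, a replication gene. The upstream windows below are printed because they hold repeated antioxidant response element cores (ARE, TGACNNNGC, searched on both strands), which capitals mark. An AP-1 motif (TGANTCA) can share letters with an ARE core. The windows were again those with the most matches in their region, seen before they were chosen.
*Hmox1* window in the 2.2 kb region (chr8:77607731-77608030, plus strand): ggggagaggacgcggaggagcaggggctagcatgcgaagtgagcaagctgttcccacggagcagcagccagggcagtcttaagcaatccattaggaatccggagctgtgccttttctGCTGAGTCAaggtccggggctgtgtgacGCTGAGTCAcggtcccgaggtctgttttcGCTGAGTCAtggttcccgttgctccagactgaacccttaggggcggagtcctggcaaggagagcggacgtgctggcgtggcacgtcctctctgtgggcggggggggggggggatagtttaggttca
*Hmox1* window in the 5.2 kb region (chr8:77613477-77613776, plus strand): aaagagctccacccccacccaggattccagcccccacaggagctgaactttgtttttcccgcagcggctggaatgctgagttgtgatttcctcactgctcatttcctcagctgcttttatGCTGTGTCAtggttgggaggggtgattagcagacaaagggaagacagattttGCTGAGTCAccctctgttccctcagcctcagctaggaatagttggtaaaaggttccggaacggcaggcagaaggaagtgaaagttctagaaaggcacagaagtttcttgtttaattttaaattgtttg

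The first of these windows held 3 ARE cores, at -9642, -9614 and -9585 bp, and each was overlapped by an AP-1 match. Its region held 4 ARE cores, or 1.82 per kb compared with 0.397 per kb over all regions. Of the 2139 regions of the same width, 34 (1.59%) held at least 4 ARE cores and 16 (0.748%) held at least 3 within 300 bases. The second window held ARE cores at -3893 and -3841 bp. Its region also held 4. Of the 369 regions of that width, 57 (15.4%) held at least 4 and 78 (21.1%) had at least 2 within 300 bases. An ARE core was found in 12.5% of all promoters and at 11.3% of region centres, and an AP-1 match in 6.93% and 11.4%. The *Hmox1* promoter held neither.

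**Figure D2:**
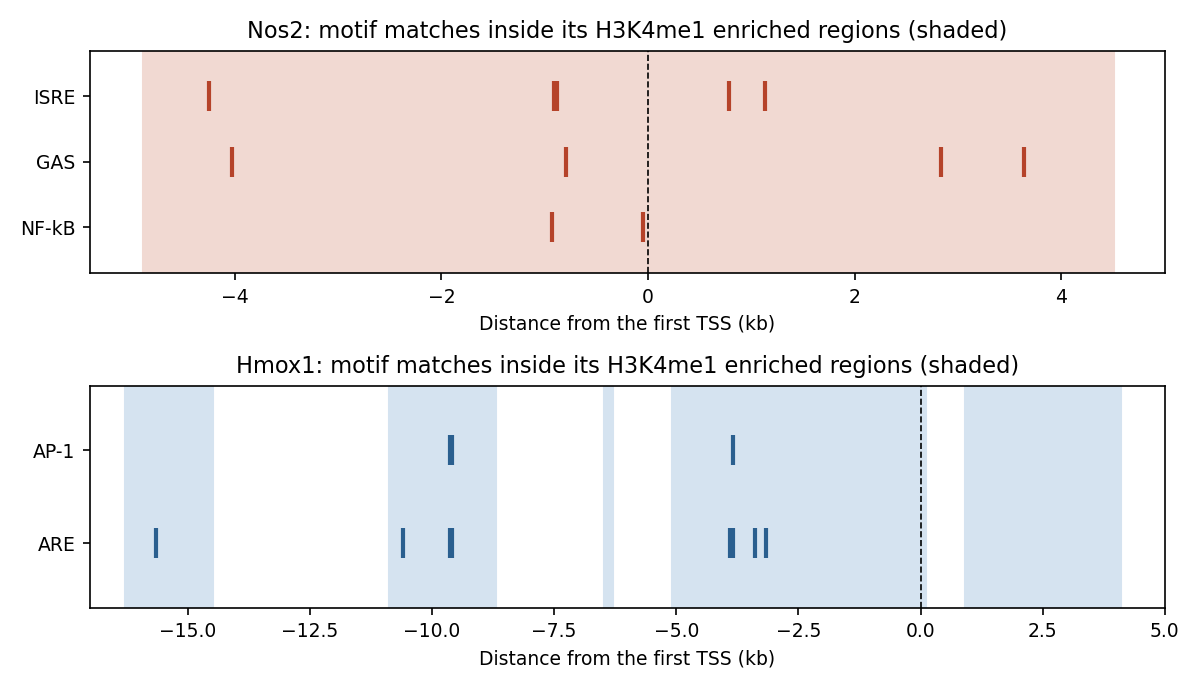
Positions of motif matches (vertical ticks) against distance from the first TSS in kb, for *Nos2* (top, NF-κB, GAS and ISRE) and *Hmox1* (bottom, ARE and AP-1), with enriched regions shaded and the *Hmox1* region downstream of the gene left out. At *Nos2* 4 matches stood together between -932 and -793 bp, and at *Hmox1* ARE cores stood together in the regions of 2.2 and 5.2 kb.

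At *Sod2* (ENSMUSG00000006818.4, chr17:13200705-13210985, plus strand), a gene known to respond to NF-κB, a region of 5.0 kb began 2296 bp downstream of the TSS and reached exons 3 to 5 of 5. A region of 0.4 kb ended 305 bp upstream, and one of 2.2 kb lay inside the neighbour *Wtap*, 17305 bp upstream. The TSS itself was in no region. The promoters of *Sod2* and *Gch1* are printed because both held NF-κB matches while their TSS were not covered, and capitals mark NF-κB, GAS and ISRE matches.
*Sod2* promoter (chr17:13200455-13200754, plus strand): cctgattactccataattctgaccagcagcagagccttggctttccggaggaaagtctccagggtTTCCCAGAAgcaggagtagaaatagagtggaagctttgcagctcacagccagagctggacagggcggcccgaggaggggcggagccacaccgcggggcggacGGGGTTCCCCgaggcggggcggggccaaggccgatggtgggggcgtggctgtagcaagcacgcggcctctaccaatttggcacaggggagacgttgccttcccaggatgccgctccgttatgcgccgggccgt
*Gch1* promoter (chr14:47809039-47809338, minus strand): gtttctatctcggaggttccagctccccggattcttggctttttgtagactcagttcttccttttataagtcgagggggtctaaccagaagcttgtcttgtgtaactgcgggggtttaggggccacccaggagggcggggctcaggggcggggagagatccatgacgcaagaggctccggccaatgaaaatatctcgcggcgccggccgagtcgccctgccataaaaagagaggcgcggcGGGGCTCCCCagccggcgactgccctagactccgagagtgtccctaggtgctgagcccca

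The *Sod2* promoter held an NF-κB match at -83 bp and a GAS match at -185 bp, and the *Gch1* promoter an NF-κB match at -10 bp. The promoter of *Cat* held the remaining NF-κB match among the 9, at -109 bp, so that 4 of the 9 promoters had one, against 8.89% of all promoters. A GAS match was found in 1 of 9 against 7.94%. ISRE, ARE and AP-1 matches were found in 0 of 9, against 8.93%, 12.5% and 6.93% of all promoters. The 5.0 kb region of *Sod2* held 5 NF-κB, GAS and ISRE matches, and 45.9% of the 425 regions of its width held at least as many.

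*Cat* (chr2:103294006-103325317, minus strand) had 5 regions, each of which overlapped the gene, and 10.6 kb covered. A region of 1.0 kb covered both of its annotated TSS, regions of 4.4 and 1.0 kb lay in intron 1, one of 3.4 kb covered exons 7 and 8, and one of 0.8 kb covered exon 10, with *Elf5* as its closest TSS. *Gpx1* (chr9:108241607-108242671, plus strand), the shortest of the genes, also had 5 regions. A region of 0.8 kb ended 7 bp before its TSS, a distance below the 200 bp grid, and one of 5.0 kb began 794 bp downstream over exon 2 and the 3′ UTR and ran on past the gene. The rest lay inside or next to *Rhoa* and *Usp4*, and these regions cannot be given to *Gpx1* alone.

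**Figure D3:**
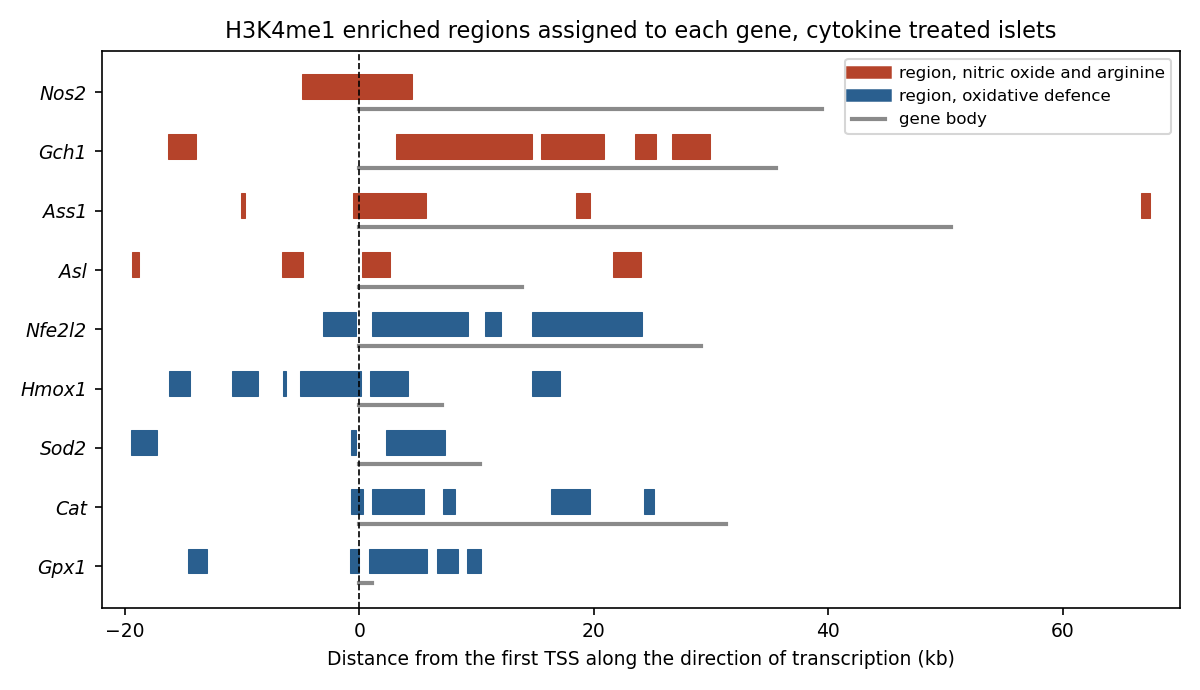
H3K4me1 enriched regions assigned to the 9 genes (blocks) against distance from the first TSS in kb, drawn along the direction of transcription, with gene bodies as grey lines. *Gch1* and *Nfe2l2* carry wide blocks inside the gene, *Nos2* 1 block over the TSS, and *Hmox1* a row of blocks upstream.

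Over the 9 genes, the first TSS lay in a region in 4 (*Nos2*, *Ass1*, *Hmox1* and *Cat*), compared with 31.1% of protein-coding genes, and any TSS in 5 compared with 39.1%. The first TSS was uncovered but had regions within 2 kb on both sides at *Gpx1* and *Nfe2l2*, 2 of 9 against 9.90%, and on one side only at *Sod2* and *Asl*, 2 of 9 against 17.7%. By role, the first TSS was covered at 2 of 4 genes of nitric oxide and arginine metabolism and at 2 of 5 oxidative defence genes. Along the promoter, 7 of 9 genes were covered at -0.4 kb, 4 at the TSS, 3 at 0.2 kb downstream and 8 at 2.4 kb downstream. Over all protein-coding genes the profile was flatter, with 29.9% at -0.4 kb, 31.1% at the TSS, 31.2% at 0.2 kb and 24.3% at 2.4 kb.

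**Figure D4:**
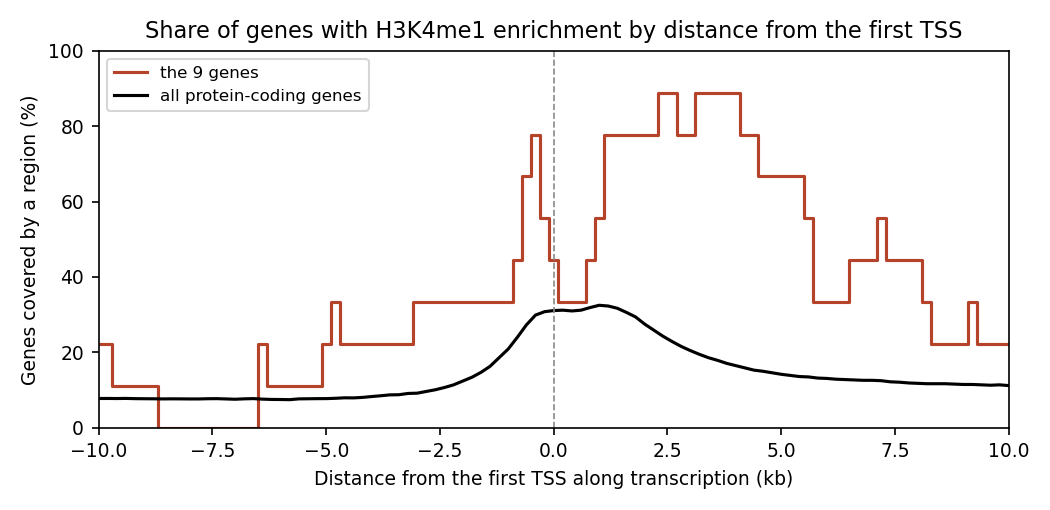
Percent of genes with a region at each distance from the first TSS (kb, 200 bp steps, positive along transcription) for the 9 genes (red) and all protein-coding genes (black). The 9 genes fall to 4 at the TSS and 3 just downstream of it, between 7 upstream and 8 at 2.4 kb, and each step of the red line is 1 gene or more.

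The number of CpG dinucleotides in the promoter differed among the 9 genes and was low at *Nos2*. The covered promoters ranged from 3 at *Nos2* and 10 at *Cat* to 27 at *Ass1*, and uncovered *Gch1* had 20. Over all genes the median was 18 for covered promoters, 26 for those with regions on both sides, 18 for those with a region on one side and 3 where no region lay within 2 kb. The 3 CpG of the *Nos2* promoter were therefore at the median of genes without enrichment near the TSS.

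All 9 genes had at least 1 region, as had 76.4% of protein-coding genes. The number per gene ran from 1 to 6 with a median of 4, against 2 over all protein-coding genes, and the covered length had a median of 10.4 kb against 4.2 kb. Apart from *Gch1*, *Nfe2l2* and *Nos2*, whose shares are given above, the share of protein-coding genes with at least as much covered length was 14.6% for *Hmox1*, 23.5% for *Cat*, 24% for *Gpx1*, 29.5% for *Ass1*, 32.9% for *Sod2* and 34.5% for *Asl*. The value for *Gpx1* rests on its annotated start, since with the RefSeq start its covered length was 22.0 kb in place of 10.4 kb. 9 of the 37 regions (24.3%) were at least 5000 bp wide, compared with 8.77% of the list and 10.3% of the 50700 regions assigned to any protein-coding gene. The 9 genes were also longer, with a median of 29.129 kb against 15.4275 kb, and longer genes can receive more regions, so these shares describe the genes and set them apart from no matched group. Of the 37 regions, 5 covered a TSS of the gene, 15 lay in the gene over none of its TSS, 12 lay upstream and 5 downstream. The 15 regions inside genes made up 65.0 kb of the 115.0 kb covered, and 9 regions were wholly intronic. For 13 regions the closest annotated TSS belonged to another gene.

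**Figure D5:**
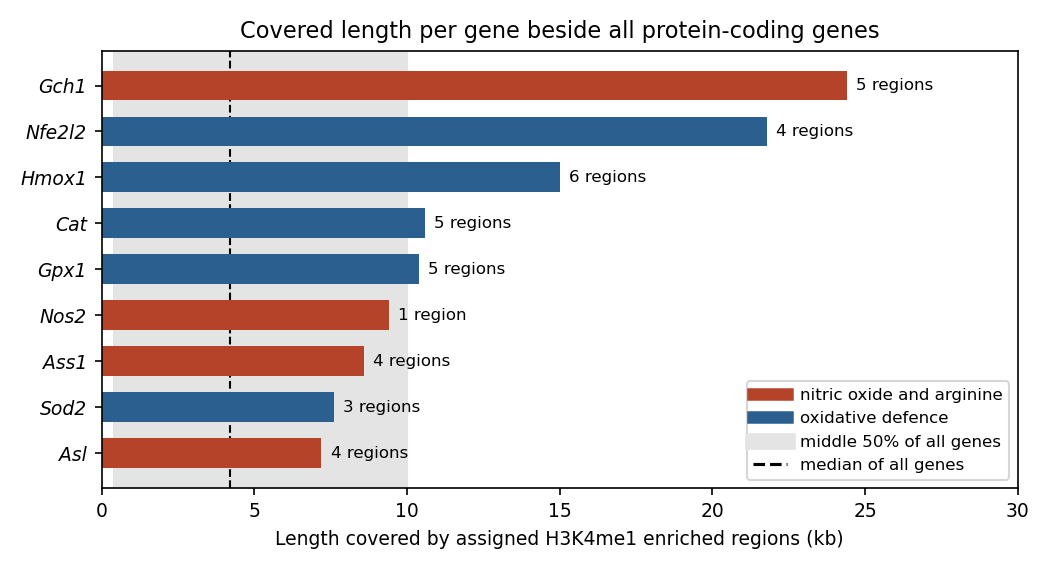
Length covered by assigned regions (kb, bars from 0) for each of the 9 genes, with the number of regions beside the bar, the middle 50% of all protein-coding genes in grey and their median as a dashed line (4.2 kb). All 9 genes lie above the median, and 5 lie above the grey band.

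At the limit of 20 kb, the farthest regions that were still assigned lay 18799 bp from a TSS of *Asl* and 18391 bp from a TSS of *Ass1*, and the nearest that were left out lay 20007 bp from *Gpx1*, with a width of 11600 bp, and 20327 bp from *Ass1*, with a width of 600 bp.

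The other genes of these pathways were read from 3 lists, beside 76.4% of protein-coding genes with a region, 31.1% with a region over the first TSS and a median covered length of 4.2 kb. Of 13 further genes of nitric oxide, arginine and tetrahydrobiopterin metabolism, each had at least 1 region, 8 had a region over the first TSS and the median covered length was 7.4 kb. *Pts*, which acts directly after *Gch1* in tetrahydrobiopterin synthesis, had the most, 23.2 kb in 3 regions. Of 13 superoxide dismutases and peroxidases, 12 had a region, 4 had one over the first TSS and the median was 4.4 kb. The share over the first TSS and the median were close to the values over all genes. *Prdx2*, a peroxiredoxin, had the most with 21.4 kb, and *Prdx4*, the peroxiredoxin of the endoplasmic reticulum, had 0. Of 22 genes of the NRF2 pathway and its known targets, each had a region, 14 had one over the first TSS and the median was 11.3 kb. *Hmox2*, the constitutive haem oxygenase, had 40.4 kb in 6 regions, compared with 15.0 kb at *Hmox1*. By share of the gene body covered the order was reversed, with 37.2% at *Hmox2* and 47.3% at *Hmox1*.

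The tissue was checked with marker genes, for which the same shares over all genes, 76.4% and 31.1%, apply. All 8 β-cell markers had regions, with a median of 13.7 kb and 36.2 kb at *Slc2a2*, but the first TSS was covered at 2 of the 8, *Slc2a2* and *Slc30a8*. Any TSS was covered at 3 of the 8, against 39.1% of protein-coding genes. The third was *Ins2*, where 7 of 8 annotated TSS lay in regions but the first did not. Regions were also found at 4 of 5 α- and δ-cell markers (not *Gcg*). Islets can also hold macrophages, in which *Nos2* is induced as well. Of 8 leukocyte and macrophage markers, 4 had a region, with 13.6 kb at *Cd68*, 10.4 kb at *Cd79a*, 3.0 kb at *Ptprc* and 0.6 kb at *Csf1r*, and *Itgam*, *Emr1*, *Lyz2* and *Cd3e* had 0. The first TSS was covered at *Cd68* alone of these 8, and their median covered length was 0.3 kb. Of 4 endothelial markers, 2 had regions (not *Cdh5* or *Tie1*), both over the first TSS, with the most at *Pecam1*, 28.0 kb in 8 regions. All 5 acinar and duct markers had regions, 2 of them over the first TSS, with the most at *Krt19*, 21.2 kb in 4 regions. These 2 were the duct genes *Krt19* and *Sox9*. The acinar genes *Cpa1*, *Ptf1a* and *Cela1* had 3.4, 1.8 and 0.8 kb and no covered TSS. Of 3 stromal markers, *Col1a1* had 7.2 kb in 5 regions, none over the first TSS, and *Col3a1* and *Pdgfrb* had 0. Presence in the list has no level, so enrichment in many cells and strong enrichment in few cannot be told apart, and the part of any cell type in the regions of the 9 genes was not tested.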

How the data were processed

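Cytokine treated islets gave 1 pooled H3K4me1 ChIP-seq library. The authors used bowtie2 for mapping to mm9 and called regions in ChromHMM, a hidden Markov model of chromatin states, whose version and settings are not given in the sources used here. The submitters' processing notes list Bowtie2 2.2.1, TopHat2 2.0.11 and Cufflinks 2.2.1. The deposited values are region positions on a 200 bp grid, with no score, read count or depth, so enrichment strength and precision are unknown and a stricter threshold by score could not be set. Wide regions can be several neighbouring 200 bp calls joined. The list is smaller than the paper's merged set of both libraries, and whether it is the calls of this library alone is not stated.

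Genes and TSS came from GENCODE M1, and sequence from the genome of the same build. A region was assigned to a gene that it overlapped, or whose TSS lay within 20 kb. 1 further gene of the group is not reported here. The text names all 9 genes and, for each pathway list, the genes without a region and the one with the most covered length. Genes at assigned regions are named where they overlap them or have the closest TSS. Promoters were 300 bases, and 5 motifs were searched on both strands, with overlapping matches counted separately. Windows around region centres came from the 63714 regions of at least 400 bp. The background was 22350 protein-coding genes on chromosomes 1 to 19 and X. Of the marker genes, Amy2b was not found in the annotation. The members and lists were chosen with earlier results of these data known. No test was made. The assignment of regions to genes, the classes at the first TSS, covered length and the motif search were tested on simulated data, and the other steps were not. RNA-seq and untreated islets were not analysed here. Python 3.11.15, numpy 2.4.6, pysam 0.24.0, samtools 1.23.1 and matplotlib 3.10.9 were used.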

Additional observations from a re-analysis of the deposited data

How the results depend on the processing

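With 1 library no replicate could be left out and no paired analysis was possible because the library has no partner. The alternatives were a minimum width (400 or 1000 bp), merging across gaps (1000 bp at most), other distances, midpoints in place of overlap, protein-coding transcripts alone, the closest TSS within 100 kb, a region reaching 200 bp to both sides of the TSS and, added after the data were seen, RefSeq start sites. Of 118 values under an alternative, 106 stayed within 1.5 times the reported value, 5 moved higher and 7 lower, and 8 of the 12 were counts of regions at single genes other than *Nos2*. By the closest TSS within 100 kb, *Nfe2l2* and *Asl* fell from 4 regions to 1, *Gpx1* from 5 to 3 and *Ass1* from 4 to 2. Noncoding TSS count under this rule, and the closest protein-coding TSS of each *Nfe2l2* region was its own. The other 4 were *Ass1* with 2 regions of at least 1000 bp, *Asl* with 2 within 10 kb, and *Gpx1* with 2 after merging and 8 within 50 kb. *Nos2* had 3 regions and 18.4 kb within 50 kb of a TSS, and also 3 and 18.4 kb by the closest TSS within 100 kb, since both rules take in the upstream regions. The number of genes with any TSS covered ran from 4 to 6, and with the first TSS covered from 3 to 5. RefSeq starts were at hand for 6 genes and moved the *Gpx1* TSS 196 bp upstream, into its region of 800 bp. With that start the region of 11600 bp also came within 20 kb, so that *Gpx1* had 6 regions and 22.0 kb covered in place of 5 and 10.4 kb. With RefSeq starts *Ass1* had 3 regions and 7.8 kb in place of 4 and 8.6 kb. Both changes together gave the 9 genes 125.8 kb in place of 115.0 kb. The list holds no depth, so an absent region can be a lack of reads.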
